A study of Drosophila mauritiana and Drosophila melanogaster and Drosophila simulans with 12 samples.

Results

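Expression of 10 genes of hemocytes and of the basement membrane was followed in eye-antennal imaginal discs of *D. melanogaster*, *D. simulans* and *D. mauritiana*. The genes were taken by symbol and matched to FlyBase identifiers: *Hml*, *NimC1*, *eater*, *crq* and *srp*, which are known from blood cells, and *Pxn*, *Ppn*, *SPARC*, *vkg* and *Col4a1* (older symbol *Cg25C*), whose products act in the extracellular matrix. All 10 are among the 13311 genes listed in both count tables of the reciprocal re-annotation, and all 10 passed the filter on low counts in each comparison. The 12 libraries form 4 groups of 3: *D. melanogaster* OreR (replicates A to C) and *D. mauritiana* TAM16 (A to C), sequenced as 50 bp single-end reads (SE), and *D. simulans* YVF (yellow vermilion forked, A to C) and *D. mauritiana* TAM16 (D to F), sequenced as 100 bp paired-end reads (PE). All samples were eye-antennal discs of female larvae at 120 h after egg laying, kept at 25 °C, with 40 to 50 discs pooled per sample and 500 ng of RNA, and the labels name no treatment. Each species is represented by 1 strain, so strain and species cannot be told apart. The discs were sequenced whole and blood cells were not isolated from them, so fewer cells of a type and less RNA per cell cannot be told apart.

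Hemocytes are the blood cells of the fly. Plasmatocytes, their most common kind in larvae, engulf bacteria and dying cells and secrete matrix proteins, and some of them attach to tissues such as imaginal discs. The basement membrane is the sheet of matrix under an epithelium, built from laminins, collagen IV, nidogen and perlecan. In larvae, collagen IV is known to be made by the fat body as well as by hemocytes and to reach the discs through the hemolymph.

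The models of the 10 genes were of nearly equal length in the 3 species after the reciprocal re-annotation, with a largest difference of 39 nt in *srp*, which is shorter than a read. On the published *D. mauritiana* genome, *Hml* (FBgn0029167) lies on arm 3L from 13257281 to 13271005 in 26 exons and *Pxn* (FBgn0011828) on 3L from 2464820 to 2492359 in 9 exons. *NimC1* (FBgn0259896) lies on 2L from 13421849 to 13423874 in 3 exons and *crq* (FBgn0015924) on 2L from 419522 to 421362 in 4 exons. Arm 3R carries *srp* (FBgn0003507) from 9257184 to 9266415 in 8 exons, *SPARC* (FBgn0026562) from 21873530 to 21874505 in 2 exons, *eater* (FBgn0243514) from 22090262 to 22092237 in 3 exons and *Ppn* (FBgn0003137) from 23437923 to 23456659 in 18 exons. The collagen IV genes are neighbours on 2L, with *vkg* (FBgn0016075) from 4793414 to 4807898 and *Col4a1* (FBgn0000299) from 4811109 to 4817674, each in 8 exons and 3210 bases apart. In the Ensembl annotation of *D. melanogaster* they are read away from each other. These intervals hold coding exons and the introns between them, since the models carry no untranslated regions.

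*NimC1* and *vkg* were listed in neither table of the published annotations, so the re-annotations alone gave counts for them. *eater*, a receptor with many EGF-like repeats, was the gene whose model changed most: its published model had 3222 nt in *D. melanogaster* against 1374 nt in *D. mauritiana*, and the reciprocal models had 1457 nt and 1455 nt, which left 45.2 % of the *D. melanogaster* coding sequence. The shortened *D. melanogaster* model received 81.5 % and 82.0 % of the counts of the published model in replicates A and C but 48.1 % in replicate B, where 201 of 418 counts were left.

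Between 17170747 and 34063962 counts per SE library and between 121468882 and 162437570 counts per PE library were assigned to the models of the reciprocal tables. In the PE libraries the authors split the reads into 50 bp pieces, so 1 fragment could give several counts. The 10 genes together took between 0.0543 % of the counts, in *D. melanogaster* replicate B, and 0.255 %, in *D. melanogaster* replicate A. *D. melanogaster* replicate B had the lowest value of its group in 10 of 10 of these genes. Over all genes tested, this library was the lowest of its group in 40.2 % and the highest in 49.8 %. It therefore stood apart in many genes besides these. Results on *D. melanogaster* are therefore given with all 3 libraries and without replicate B. The 8 disc markers on the list (*ey*, *toy*, *eya*, *so*, *dac*, *ato*, *Dll* and *hth*) were present in every library, and their summed level lay between 1335 and 1637 CPM in all 12 (counts per 1000000 counts of the library).

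Levels of a gene are given as CPM, scaled by the trimmed mean of M-values (TMM) within each table, in the order of the replicate letters. *Hml* encodes hemolectin, a clotting protein made by plasmatocytes. It had 429, 78.1 and 354 CPM in *D. melanogaster*, against 166, 86.6 and 131 CPM in *D. mauritiana* SE. In *D. simulans* it had 256, 162 and 107 CPM, against 253, 235 and 145 CPM in *D. mauritiana* PE. Replicates A and C of *D. melanogaster* lay above all 3 *D. mauritiana* SE libraries and replicate B below them, and the groups overlapped in both pairs. *NimC1*, a receptor for the uptake of bacteria, had 92.5, 14.5 and 78.2 CPM in *D. melanogaster*, against 48.8, 27.9 and 83.4 CPM in *D. mauritiana* SE. Its PE values were 102, 56.0 and 51.5 CPM in *D. simulans*, against 50.4, 55.5 and 35.1 CPM in *D. mauritiana*. The *NimC1* values overlapped in both pairs, with *D. melanogaster* replicate B again the lowest of all 12 libraries.

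*eater*, a phagocytosis receptor that also takes part in hemocyte adhesion, had 127, 12.3 and 97.6 CPM in *D. melanogaster*, against 12.9, 7.01 and 24.4 CPM in *D. mauritiana* SE. In the PE libraries it had 66.4, 35.9 and 31.4 CPM in *D. simulans*, against 33.8, 32.4 and 20.5 CPM in *D. mauritiana*. *D. melanogaster* replicates A and C exceeded every other library, and replicate B lay among the *D. mauritiana* SE values. *srp* encodes a GATA transcription factor needed for hemocytes and fat body. It had 43.3, 10.1 and 39.2 CPM in *D. melanogaster*, against 16.5, 11.5 and 27.9 CPM in *D. mauritiana* SE, and 39.7, 18.8 and 22.3 CPM in *D. simulans*, against 24.2, 22.8 and 18.9 CPM in *D. mauritiana* PE. Its groups overlapped in both pairs.

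*crq* (croquemort) is a scavenger receptor of the CD36 family for dying cells. It varied least of the hemocyte genes, with 67.3, 44.8 and 60.6 CPM in *D. melanogaster*, against 56.4, 68.1 and 78.5 CPM in *D. mauritiana* SE. In *D. simulans* it had 101, 92.7 and 94.1 CPM, against 78.2, 77.8 and 72.4 CPM in *D. mauritiana* PE. The PE pair did not overlap, and this was the 1 of the 10 genes without overlap between *D. simulans* and *D. mauritiana* PE, where 44.6 % of all genes tested had none.

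Among the matrix genes, *Pxn* encodes peroxidasin, the enzyme that cross-links collagen IV. It had 584, 98.5 and 542 CPM in *D. melanogaster*, against 157, 107 and 138 CPM in *D. mauritiana* SE. Its PE values were 343, 206 and 151 CPM in *D. simulans*, against 168, 162 and 103 CPM in *D. mauritiana*. As for *Hml*, the 3 *D. melanogaster* values enclosed the whole *D. mauritiana* SE range. *Col4a1*, the alpha 1 chain of collagen IV, had 387, 45.0 and 359 CPM in *D. melanogaster*, against 136, 99.6 and 147 CPM in *D. mauritiana* SE, and 246, 209 and 137 CPM in *D. simulans*, against 221, 210.5 and 126 CPM in *D. mauritiana* PE. *vkg* (viking), the alpha 2 chain, had 232, 32.9 and 217 CPM in *D. melanogaster*, against 104, 67.4 and 86.0 CPM in *D. mauritiana* SE, and 156, 143 and 101 CPM in *D. simulans*, against 140.4, 133 and 77.4 CPM in *D. mauritiana* PE. Both chains had the same order of libraries within *D. melanogaster*, within *D. simulans* and within *D. mauritiana* PE.

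*SPARC*, a matrix glycoprotein that binds collagen, had 149.8, 68.9 and 147 CPM in *D. melanogaster*, against 158, 106 and 105 CPM in *D. mauritiana* SE, and 126, 82.6 and 69.7 CPM in *D. simulans*, against 102, 101 and 77.0 CPM in *D. mauritiana* PE. *Ppn* encodes papilin, a large matrix glycoprotein. It had 312, 168 and 292 CPM in *D. melanogaster*, against 183, 182 and 284 CPM in *D. mauritiana* SE, and 436, 400.4 and 397 CPM in *D. simulans*, against 448, 446 and 393 CPM in *D. mauritiana* PE. All 6 PE libraries lay above all 6 SE libraries in *Ppn*, but values of different species in the 2 tables were only set side by side. In *D. melanogaster* against *D. mauritiana* SE, 0 of the 10 genes were without overlap, where 37.6 % of all genes tested had none.

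**Figure D1:**
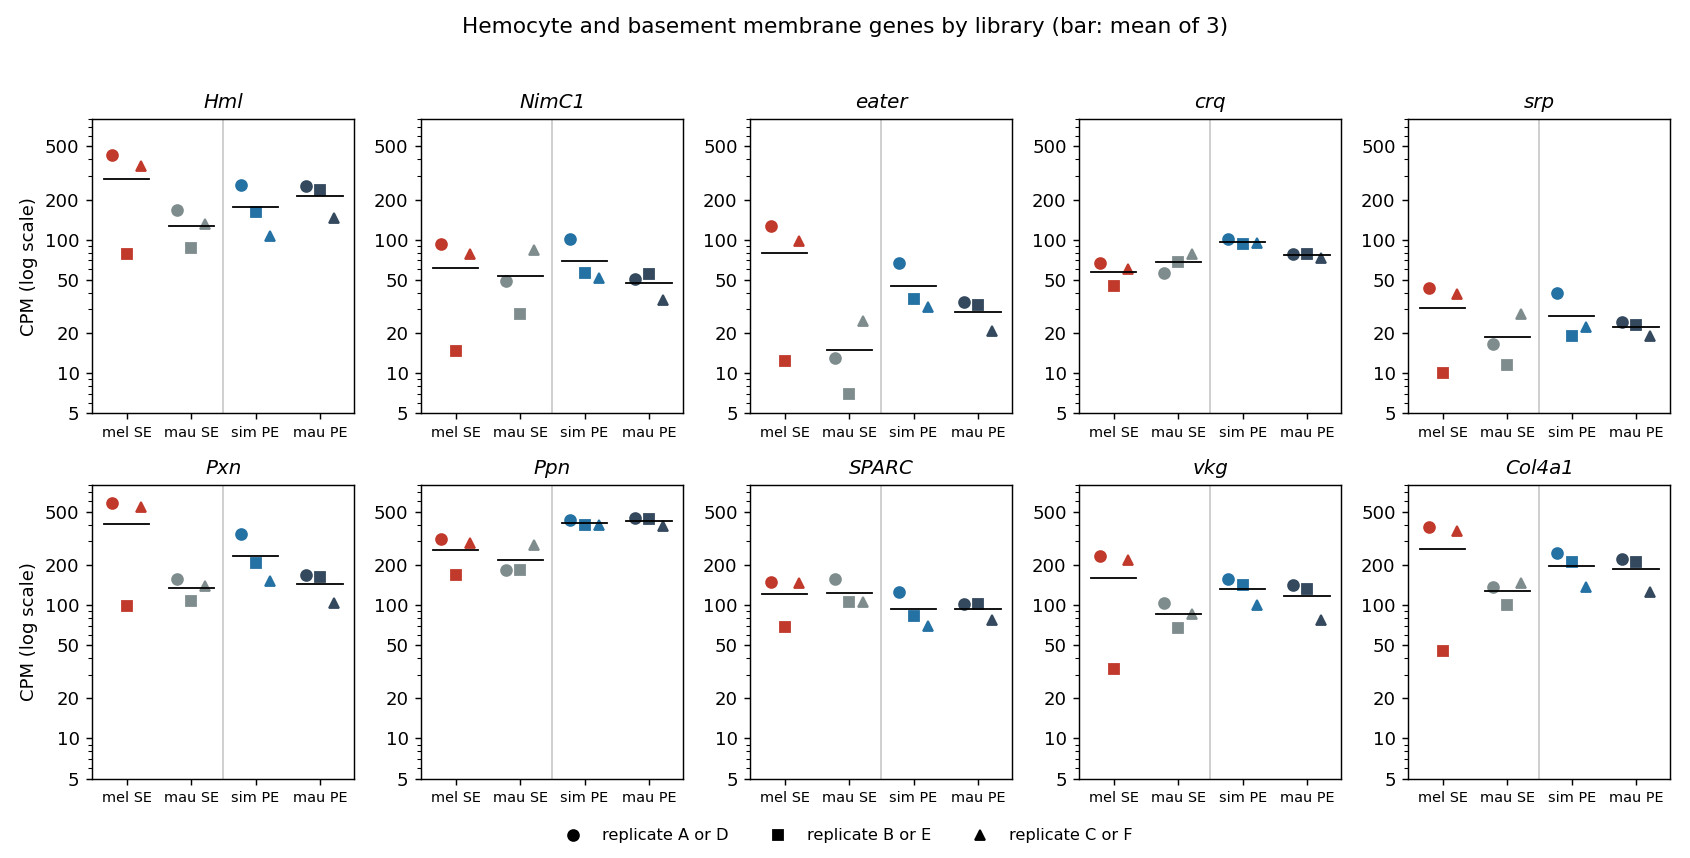
CPM (log axis) of the 10 genes in each library of *D. melanogaster* (mel SE), *D. mauritiana* (mau SE, mau PE) and *D. simulans* (sim PE), with the mean of 3 libraries as a bar and the replicate letter as the symbol. The square of *D. melanogaster* replicate B is the lowest point of its group in all 10 panels, for example 12.3 CPM in *eater* beside 127 and 97.6 CPM.

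Between genes, levels were compared per kilobase of gene model (RPKM from the scaled CPM). *SPARC* was the highest of the 10 in 12 of 12 libraries, between 75.3 and 172 RPKM, and *srp* the lowest in 12 of 12, between 2.68 and 11.5 RPKM. Mean levels in *D. melanogaster* were 133 ± 50.3 for *SPARC*, 89.1 ± 58.7 for *Pxn*, 54.2 ± 40.9 for *eater* and 49.4 ± 35.6 RPKM for *Col4a1* (SD, n = 3), and each of these means was within 1 SD of the next. In *D. mauritiana* SE, *SPARC* had 134 ± 32.9 RPKM, *crq* 45.8 ± 7.49 RPKM, *Pxn* 29.3 ± 5.59 RPKM and *eater* 10.1 ± 6.06 RPKM (SD, n = 3). The place of *eater* in the order was the least stable of all 10, together with *Ppn*, and ran from the third to the ninth between libraries. *Hml*, whose model of 11532 nt is the longest of the 10, stood at the eighth or the ninth place in every library. By the means of the PE groups *crq*, with 65.1 ± 3.10 RPKM in *D. simulans* and 51.6 ± 2.19 RPKM in *D. mauritiana*, came after *SPARC*, with 103 ± 32.9 RPKM in *D. simulans* and 102 ± 15.6 RPKM in *D. mauritiana* (SD, n = 3). In *D. simulans* replicate A, *Pxn* (74.8 RPKM) stood above *crq* (68.6 RPKM). *Ppn* followed closely in *D. mauritiana* PE with 49.3 ± 3.59 RPKM, within 1 SD of *crq*. The collagen IV chains were lower than *SPARC* in all 4 groups, at 49.4 (*Col4a1*) and 28.1 RPKM (*vkg*) in *D. melanogaster*, 23.9 and 14.9 RPKM in *D. mauritiana* SE, 37.0 and 23.1 RPKM in *D. simulans*, and 34.9 and 20.3 RPKM in *D. mauritiana* PE.

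In *D. melanogaster* replicates A and C, the hemocyte genes *Hml*, *eater* and *srp*, both collagen IV genes, *Pxn* and *Ppn* were higher than in all 3 *D. mauritiana* SE libraries. In replicate B, *eater* lay within the range of *D. mauritiana* SE and the others of these genes below it. The difference between *D. melanogaster* and *D. mauritiana* was tested with edgeR's quasi-likelihood test over all genes, with p-values adjusted after Benjamini and Hochberg and genes called at an adjusted p below 0.05. With all 6 SE libraries none of the 10 genes was called, where 18.2 % of the 9767 genes tested were. At an unadjusted p below 0.05 there were 2 genes, *eater* and *Pxn*, and DESeq2 called 1, *Pxn*. *eater* had a log2 fold change estimated at 2.43 (standard error 0.81, adjusted p = 0.0836), *Pxn* of 1.61 (standard error 0.58, adjusted p = 0.105) and *Hml* of 1.17 (standard error 0.57, adjusted p = 0.210), where positive values mean higher expression in *D. melanogaster*. The collagen IV genes had log2 fold changes of 1.05 (*Col4a1*, standard error 0.66, adjusted p = 0.341) and 0.91 (*vkg*, standard error 0.62, adjusted p = 0.373). The estimates of *srp* (0.73), *Ppn* (0.25), *NimC1* (0.21), *SPARC* (-0.0078) and *crq* (-0.23) were all smaller than 1.5 times their standard error. The median of the 10 log2 fold changes was 0.82, and that of all genes tested was 0.0092.

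Without *D. melanogaster* replicate B, 5 of the 10 genes were called, all higher in *D. melanogaster*, where 19.1 % of all genes tested were called in either direction. These were *eater* with a log2 fold change estimated at 2.93 (standard error 0.48, adjusted p = 0.00986), *Pxn* with 2.07 (standard error 0.20, adjusted p = 0.00167), *Hml* with 1.62 (standard error 0.27, adjusted p = 0.0111), *Col4a1* with 1.55 (standard error 0.20, adjusted p = 0.0043) and *vkg* with 1.39 (standard error 0.20, adjusted p = 0.00645) in edgeR. *srp*, with 1.15 (standard error 0.35, adjusted p = 0.0682), was next. *NimC1* (0.68), *Ppn* (0.48), *SPARC* (0.28) and *crq* (-0.080) were not called either. In 5 of the 6 fits that each left out 1 library, none of the 10 genes was called, so the calls rest on the removal of that 1 library, which was singled out after its values had been seen. Without it, the spread within *D. melanogaster* comes from replicates A and C alone, which were unusually alike. Their chi-square per degree of freedom over genes, larger for less alike libraries, was 35.8. It was 187 (A with B) and 201 (B with C) for the other pairs, and 156 to 255 within *D. mauritiana* SE. Summed fat body markers moved with these genes between the *D. melanogaster* libraries, as given below, and their part in the difference was not tested.

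For *eater* the call also depended on the gene model. With all 6 SE libraries the log2 fold change was 2.71 (adjusted p = 0.0322, edgeR) on the direct re-annotation and 2.94 (adjusted p = 0.0297) on the published annotation. The *D. melanogaster* model had 3225 nt against 1498 nt in *D. mauritiana* in the direct re-annotation, and the published lengths are given above.

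**Figure D2:**
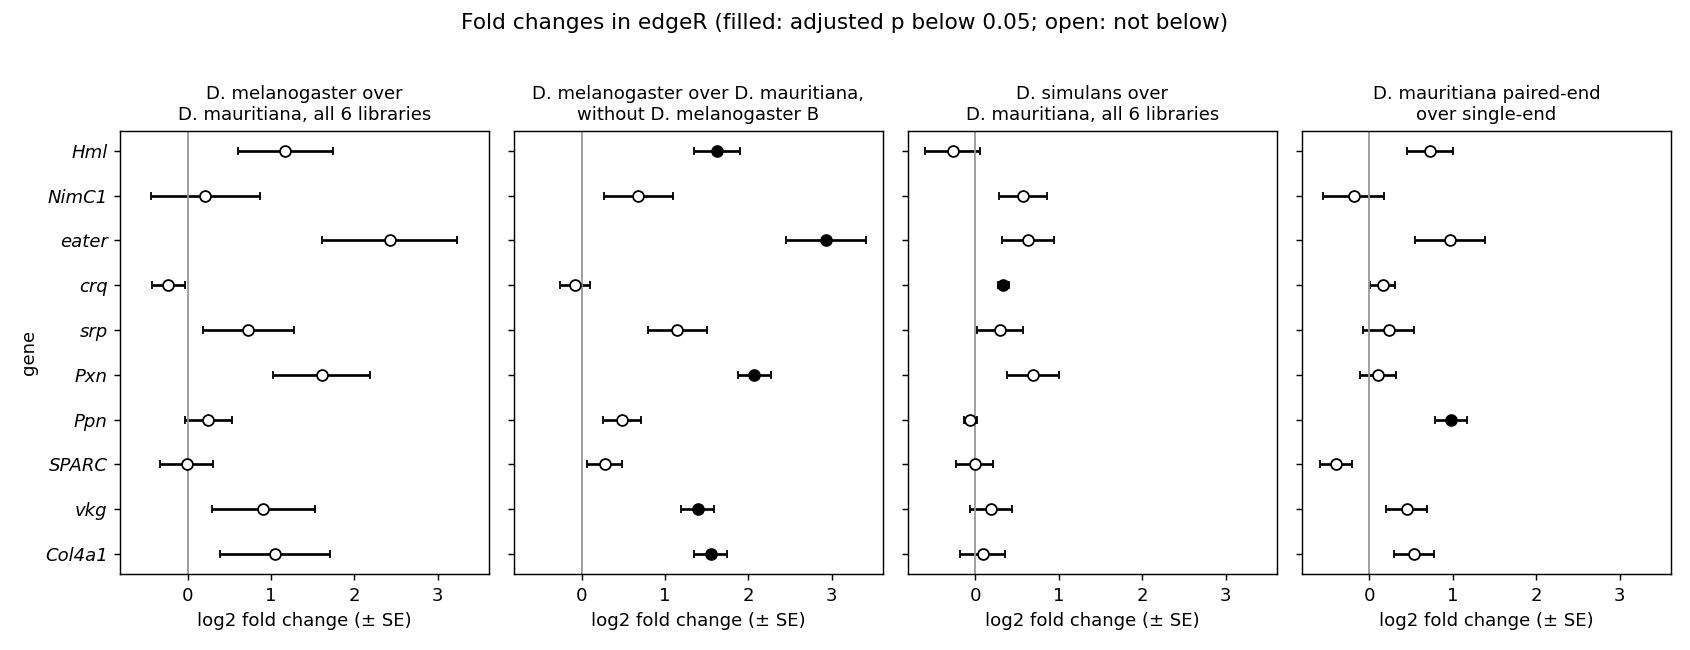
Log2 fold changes of the 10 genes from edgeR, with 1 standard error to each side, for *D. melanogaster* over *D. mauritiana* with and without *D. melanogaster* replicate B, for *D. simulans* over *D. mauritiana* PE, and for the paired-end over the single-end set of *D. mauritiana*; filled points have an adjusted p below 0.05. *Pxn* has a standard error of 0.58 with all libraries and of 0.20 without replicate B, and 5 points of the second panel are filled against none of the first.

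Between *D. simulans* and *D. mauritiana* PE, 1 of the 10 genes was called, where 25.1 % of the 11121 genes tested were. *crq* was higher in *D. simulans*, with 96.04 ± 4.58 CPM against 76.1 ± 3.23 CPM in *D. mauritiana* PE (SD, n = 3) and a log2 fold change estimated at 0.34 (standard error 0.064, adjusted p = 0.00981, edgeR). It was called in all 6 fits that left out 1 library, with adjusted p-values of at most 0.0373, and under all 6 other alternatives. The estimates of *Pxn* (0.69, standard error 0.31, adjusted p = 0.154), *eater* (0.62, standard error 0.31, adjusted p = 0.189) and *NimC1* (0.57, standard error 0.29, adjusted p = 0.190) were positive but not called, and in each of the 3 genes *D. simulans* replicate A was the highest of the 6 libraries. *Hml* had a log2 fold change estimated at -0.27 (standard error 0.33, adjusted p = 0.581). For *Col4a1* (0.085, standard error 0.27) and *vkg* (0.19, standard error 0.25) the estimate was smaller than its standard error. The median of the 10 genes was 0.24, and that of all genes tested was 0.0027.

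The 2 sets of *D. mauritiana* libraries came from the same strain, sex, stage and tissue, and read type, sequencing set and dissection cannot be told apart between them. 1 of the 10 genes was called between the PE and the SE set, where 45.3 % of the 10467 genes tested were. *Ppn* was higher in the PE set, with 429 ± 31.2 CPM against 216 ± 58.4 CPM in the SE set (SD, n = 3) and a log2 fold change estimated at 0.98 (standard error 0.20, adjusted p = 0.0122, edgeR). This call was lost without *D. mauritiana* SE replicate B (adjusted p = 0.0558) and without PE replicate E (adjusted p = 0.0506). *Ppn* and *SPARC* were the 2 genes of 10 whose sets did not overlap in CPM, where 62.5 % of all genes tested had none. *SPARC* was lower in the PE set in every library (log2 fold change -0.40, standard error 0.19, adjusted p = 0.122, edgeR). The CPM of the 2 sets were scaled separately, so overlap depends on that scaling. The closest values of *SPARC* were 102 CPM in PE replicate D and 105 CPM in SE replicate C. *Hml* (0.73, adjusted p = 0.0639) and *eater* (0.97, adjusted p = 0.0966) were not called in edgeR but were called in DESeq2 (0.72 with adjusted p = 0.0195 and 0.89 with adjusted p = 0.0345). The count was 5 without SE replicate C (*Ppn*, *eater*, *srp*, *Col4a1* and *SPARC*, with 54.7 % of all genes called) and 4 without PE replicate F (*Ppn*, *Hml*, *Col4a1* and *vkg*, with 33.8 %). The median of the 10 genes was 0.34, and that of all genes tested was -0.035. This comparison shares its libraries with both species comparisons, so its values are only given beside theirs.

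Whether the 2 species differences differ was tested with all 12 libraries, as the difference of *D. melanogaster* from *D. mauritiana* SE minus that of *D. simulans* from *D. mauritiana* PE. None of the 10 genes was called in edgeR, with 1 gene, *crq*, at an unadjusted p below 0.05, and none was called in DESeq2, where 14.5 % of the 11287 genes tested were called in edgeR. The estimate was 1.81 for *eater* (standard error 0.95, adjusted p = 0.251), 1.46 for *Hml* (standard error 0.74, adjusted p = 0.234) and -0.57 for *crq* (standard error 0.23, adjusted p = 0.134). Without *D. melanogaster* replicate B, 5 genes were called, where 15.5 % of all genes tested were: *eater* (2.33), *Hml* (1.93), *Col4a1* (1.49), *Pxn* (1.41) and *vkg* (1.24), with adjusted p-values in edgeR between 0.0197 and 0.0421. This fit too leaves *D. melanogaster* with the alike replicates A and C alone.

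Most of the 10 genes had the same highest and lowest library within *D. melanogaster*, *D. simulans* and *D. mauritiana* PE, and less so within *D. mauritiana* SE. *D. melanogaster* replicate B was the lowest and replicate A the highest of its group in 10 of 10 genes, where A was the highest in 35.4 % of all genes. In *D. simulans* replicate A was the highest in 10 of 10 genes (43.3 % of all genes) and replicate C the lowest in 8 (23.2 %). *D. mauritiana* PE replicate F was the lowest in 10 of 10 genes (37.7 %) and replicate D the highest in 9 (22.3 %). In *D. mauritiana* SE replicate B was the lowest in 8 genes (20.9 %), and the highest library was C in 6 genes and A in 4. The ratio of the highest to the lowest library had a median over the 10 genes of 5.71 in *D. melanogaster*, where it ran from 1.502 (*crq*) to 10.3 (*eater*), and the median of all genes was 1.38. It was 1.55 in *D. mauritiana* SE (all genes 1.45), 1.89 in *D. simulans* (1.22) and 1.61 in *D. mauritiana* PE (1.20). The smallest ratio was that of *crq* in both PE groups, at 1.09 in *D. simulans* and 1.08 in *D. mauritiana*.

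**Figure D3:**
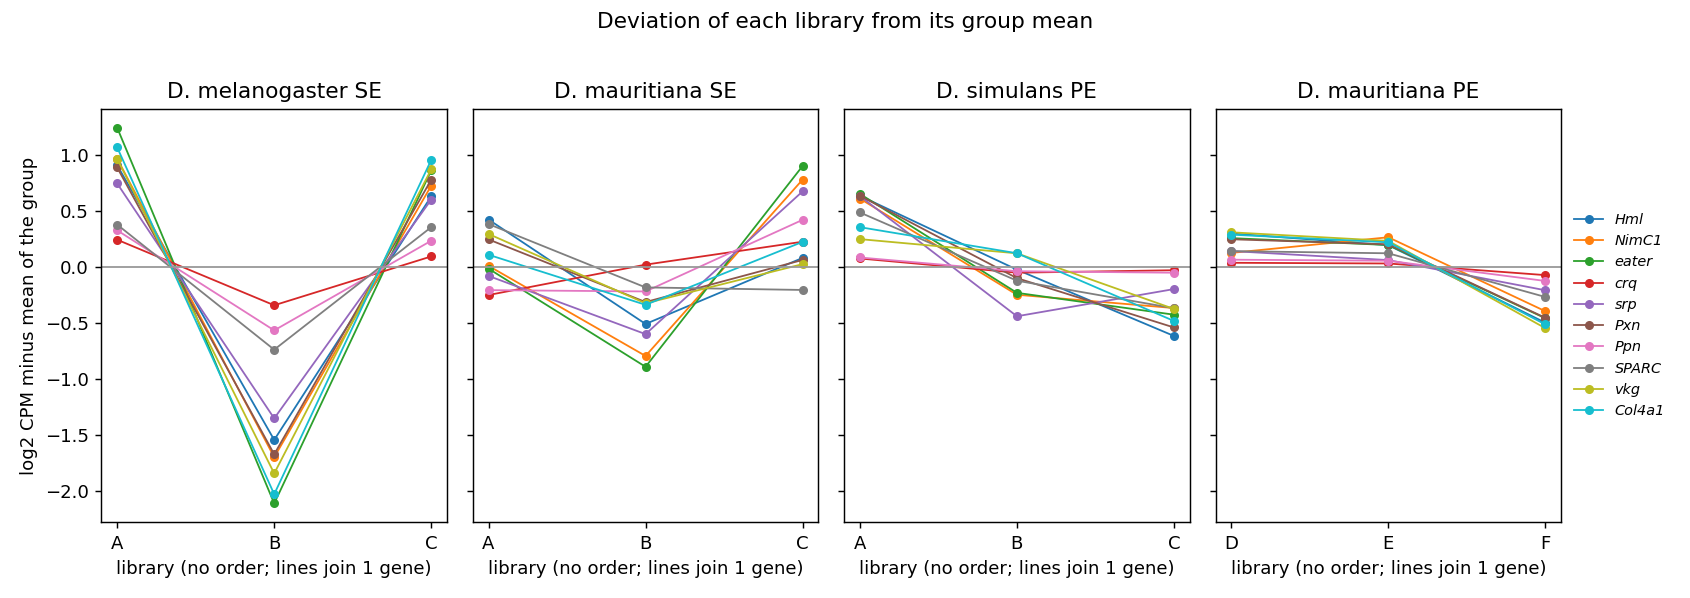
Log2 CPM of each of the 10 genes minus its mean over the 3 libraries of the group, by library, with a line for each gene. In *D. melanogaster* all 10 lines dip at replicate B, least for *crq*, whose highest library is 1.502 times its lowest, and most for *eater*, with a ratio of 10.3.

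To see which genes shared this pattern, the mean log2 CPM of *Hml*, *NimC1* and *eater* was taken as a measure of the hemocyte genes in each library, and the SD over the 12 libraries of a gene's log2 CPM minus that measure was computed for 8144 genes. A small SD means that a gene keeps a nearly constant ratio to the hemocyte genes. The 5 genes with the smallest SD were *CG4950* (0.251), *LManI* (0.277), which encodes a lysosomal alpha-mannosidase, *srp* (0.282), *Col4a1* (0.282) and *vkg* (0.322), where the median of all ranked genes was 0.965. *CG4950* had 56.2, 10.6 and 44.4 CPM in *D. melanogaster*, against 12.6, 8.48 and 25.4 CPM in *D. mauritiana* SE, and 43.7, 19.3 and 22.5 CPM in *D. simulans*, against 20.1, 20.9 and 13.4 CPM in *D. mauritiana* PE. As in *eater*, *D. melanogaster* replicates A and C lay above all 3 *D. mauritiana* SE libraries and replicate B below 2 of them. *Pxn* ranked eighth (0.366), followed by *Sr-CI* (0.409), a scavenger receptor of plasmatocytes, which was picked for mention after its values had been seen. The other plasmatocyte genes listed below were farther off, where ranked, from rank 185 (*Pvr*) to rank 8067 (*gcm2*), with *He* at 5172. *Ppn* (0.706), *SPARC* (0.715) and *crq* (0.802) were less close, at the ranks 130, 168 and 989, so the 10 genes did not form 1 group by this measure. The values come from the same libraries as those above, and the 12 libraries share depth and preparation within a set.

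Ratios within a library were formed for *Col4a1* over *vkg*, *LanA* over *LanB1* and *Col4a1* over *LanB1*, for *Pxn*, *NimC1* and *eater* over *Hml*, and for *PPO2* over *Hml*. Per length, *Col4a1* was 1.65 ± 0.143 times the level of *vkg* over the 12 libraries (SD, n = 12), with a range of 1.42 to 1.85, and in *D. melanogaster* it was 1.79, 1.47 and 1.77. *Col4a1* itself differed by a factor of 8.60 between these replicates. The ratio of *Col4a1* to the laminin gene *LanB1* ran from 0.138 in *D. melanogaster* replicate B to 0.712 in *D. melanogaster* replicate C, and so was not constant. *PPO2* over *Hml*, in CPM, ran from 0.398 to 3.09, and *LanA* over *LanB1* per length from 0.485 to 0.869. *Pxn* was 3.38 ± 0.18 times *Hml* in *D. simulans* and 1.73 ± 0.058 times *Hml* in *D. mauritiana* PE (SD, n = 3), and the libraries did not overlap. In the SE libraries the ratio of *Pxn* to *Hml* was 3.48 ± 0.34 in *D. melanogaster* and 2.72 ± 0.36 in *D. mauritiana*, again without overlap. The ratio of *eater* to *Hml* was 2.05 ± 0.28 in *D. simulans* and 1.09 ± 0.031 in *D. mauritiana* PE, without overlap, and 1.93 ± 0.59 in *D. melanogaster* and 0.91 ± 0.49 in *D. mauritiana* SE, with overlap. *NimC1* relative to *Hml* was higher in *D. simulans* (2.52 ± 0.42) than in *D. mauritiana* PE (1.39 ± 0.14) and lower in *D. melanogaster* (1.28 ± 0.12) than in *D. mauritiana* SE (2.58 ± 1.18). Exact two-sided permutation tests of the 8 comparisons (*Col4a1* over *vkg* and the 3 ratios of *Pxn*, *NimC1* and *eater* to *Hml*, 2 pairs, 3 libraries each) gave p = 0.1 for the 5 without overlap, the smallest p that 3 against 3 allows, and 0.16 after adjustment over the 8. The ratios were chosen after the levels had been seen.

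**Figure D4:**
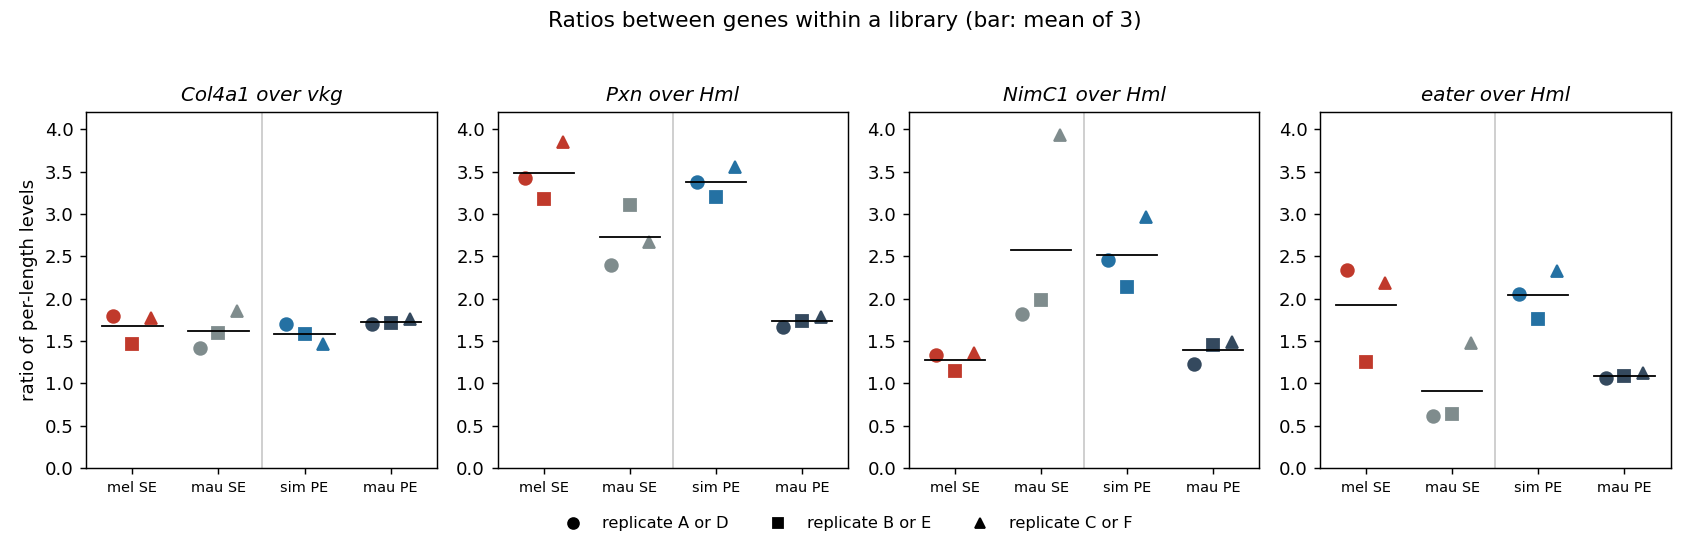
Ratio of the per-length levels of *Col4a1* to *vkg*, and of *Pxn*, *NimC1* and *eater* to *Hml*, in each library (linear axis from 0), with the mean of 3 libraries as a bar. All 12 points of *Col4a1* over *vkg* lie between 1.42 and 1.85, while the *D. simulans* points of *Pxn* over *Hml*, around 3.38, lie above those of *D. mauritiana* PE, around 1.73.

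Other genes of the same processes were read from lists that do not contain the 10, and their counts stand beside the shares of all genes called given above, 18.2 % for *D. melanogaster*, 25.1 % for *D. simulans* and 45.3 % for the sets of *D. mauritiana*. Of 18 other plasmatocyte genes tested, 3 were lower and none was higher in *D. melanogaster* than in *D. mauritiana* SE. These were *gcm2* (log2 fold change -2.82, adjusted p = 0.00372, edgeR), *gcm* (-2.65, adjusted p = 0.0154) and the scavenger receptor gene *Sr-CIV* (-2.16, adjusted p = 0.0111). *gcm* and *gcm2* are transcription factors of early hemocytes and of glia. *gcm* had 1.69, 6.27 and 1.53 CPM in *D. melanogaster*, against 19.2, 19.9 and 19.3 CPM in *D. mauritiana* SE, and replicate B was the highest *D. melanogaster* library here, unlike in the 10 genes. Its call was lost without *D. melanogaster* replicate C (adjusted p = 0.0506). The 19 listed genes together summed to 1018, 715 and 959 CPM in *D. melanogaster*, lowest in replicate B. *NimC2*, *Sr-CI* and *He* were among those lowest in B, with the highest library 8.21, 5.75 and 4.08 times the lowest. *gcm2*, *PGRP-LC* and *tei* were highest in B, as was *gcm*, and *Sr-CIV* was lowest in C. Without *D. melanogaster* replicate B, 2 of the 18 were higher, *NimB2* (1.58, adjusted p = 0.00439) and *NimB4* (1.11, adjusted p = 0.0279), and the same 3 were lower. Between *D. simulans* and *D. mauritiana* PE, 9 of the 18 were called, 3 higher and 6 lower in *D. simulans*. The largest differences were those of *gcm* (-2.99, adjusted p = 0.0178), *gcm2* (-1.89, adjusted p = 0.00233), *NimB2* (1.72, adjusted p = 0.00488) and *NimC2* (-1.59, adjusted p = 0.045). *NimB2* encodes a secreted protein of the Nimrod family to which *NimC1* and *eater* belong. The call of *gcm* was lost without *D. simulans* replicate A (adjusted p = 0.0577), and that of *NimC2*, with at most 11.2 CPM in the PE libraries, in 4 of the 6 fits with 1 library left out. *gcm* and *gcm2* were also lower in the PE than in the SE set of *D. mauritiana* (-1.80 and -1.56, adjusted p = 0.0108 and 0.00783), where 2 of the 18 were higher and 4 lower. The call of *gcm* was lost there without SE replicate B (adjusted p = 0.0519).

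Of 7 genes tested from the list for crystal cells and lamellocytes, which also holds the clotting gene *fon*, 2 were higher in *D. melanogaster* than in *D. mauritiana* SE. *PPO2*, a prophenoloxidase of crystal cells, had 1199, 180.4 and 1095 CPM in *D. melanogaster*, against 133, 194 and 52.0 CPM in *D. mauritiana* SE (log2 fold change 2.71, standard error 0.75, adjusted p = 0.0451, edgeR). As in the 10 genes, replicate B was the lowest *D. melanogaster* library of *PPO2*, and here it overlapped with *D. mauritiana* SE. The call held in 1 of the 6 fits that left out 1 library, the one without *D. melanogaster* replicate B, and *PPO3*, a prophenoloxidase of lamellocytes, was called with 1.20 (adjusted p = 0.0291) and kept its call in 2 of the 6. Without *D. melanogaster* replicate B, 3 of the 7 were higher, *PPO2* (3.18), *PPO3* (1.22) and the clotting gene *fon* (1.35). Between *D. simulans* and *D. mauritiana* PE, 3 of the 7 were higher in *D. simulans*: *atilla* (1.12), *ItgaPS4* (0.77) and *PPO3* (0.77), all known from lamellocytes. *atilla* was called in all 6 fits with 1 library left out, *PPO3* in 3 and *ItgaPS4* in none. Between the sets of *D. mauritiana*, 3 were higher and 1 lower in the PE set.

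The other basement membrane components varied between the *D. melanogaster* libraries by factors of 1.12 to 1.92. *LanA*, the laminin alpha chain, had 707, 368 and 632 CPM in *D. melanogaster*, against 385, 386 and 605 CPM in *D. mauritiana* SE, and 1053, 1100.2 and 1086 CPM in *D. simulans*, against 989, 1019.9 and 865 CPM in *D. mauritiana* PE. Its highest *D. melanogaster* library was 1.92 times its lowest. This ratio was 1.71 for *LanB1*, 1.28 for *Ndg*, 1.19 for *wb* and 1.12 for *Mp*, against 1.502 for *crq*, 1.86 for *Ppn* and 2.17 for *SPARC* and between 4.30 and 10.3 for the other 7 of the 10 genes. Replicate B was the lowest *D. melanogaster* library in 4 of these 5 components, with *Ndg* as the exception. The 5 together summed to 1421, 831 and 1290 CPM in *D. melanogaster*, against 907, 959 and 1298 CPM in *D. mauritiana* SE. Of the 5 components tested, none was called between *D. melanogaster* and *D. mauritiana* SE in edgeR or in DESeq2, and none had an unadjusted p below 0.05. In *D. simulans* 1 of 5 was lower than in *D. mauritiana* PE, the collagen XV/XVIII gene *Mp* (-0.39, adjusted p = 0.00854). Between the 2 sets of *D. mauritiana*, where 45.3 % of all genes were called, 4 of 5 were higher in the PE set: the nidogen gene *Ndg* (1.69), *LanA* (1.05), *Mp* (0.73) and the laminin chain *LanB1* (0.53), with adjusted p-values in edgeR between 0.0119 and 0.0462. None of the 4 kept its call in all 6 fits with 1 library left out, and *Ndg* kept it in 1.

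Genes that process and secrete collagen IV differed little in the 2 species comparisons. None of 7 was called between *D. melanogaster* and *D. mauritiana* SE in edgeR or in DESeq2, with 1 at an unadjusted p below 0.05, and 1 of 7 between *D. simulans* and *D. mauritiana* PE, the prolyl hydroxylase gene *PH4alphaEFB* (-0.21, adjusted p = 0.0476), which kept its call in 1 of the 6 fits with 1 library left out. Their summed level lay between 844 and 880.2 CPM in *D. melanogaster* and between 771 and 871 CPM in *D. mauritiana* SE, with 844 CPM in *D. melanogaster* replicate B. This sum hides opposite orders. *Sec23* and *Sar1*, the most abundant of the 7, were highest in replicate B (265 and 268 CPM). *Plod*, *Crag*, *rudhira*, *Rab10* and *PH4alphaEFB* were lowest in it, with the highest library 1.64, 1.54, 1.42, 1.25 and 1.09 times the lowest. Of 8 genes of matrix remodelling and matrix receptors, 3 were lower in *D. melanogaster* than in *D. mauritiana* SE. These were the lysyl oxidase gene *Loxl1* (-2.32, adjusted p = 0.003), the metalloproteinase gene *Mmp2* (-0.87, adjusted p = 0.0137) and *Timp*, an inhibitor of metalloproteinases (-0.79, adjusted p = 0.0445). Without *D. melanogaster* replicate B, 2 of the 8 were lower, *Loxl1* and *Mmp2*. *Loxl1* was called in all 6 fits with 1 library left out, *Mmp2* in 3 and *Timp* in none. In *D. simulans* 2 of 8 were lower than in *D. mauritiana* PE, *Loxl1* (-1.14, adjusted p = 0.0141), whose call was lost without *D. simulans* replicate C (adjusted p = 0.0607), and *Mmp1* (-1.11, adjusted p = 0.000132). *Mmp1* had 41.4, 40.7 and 38.7 CPM in *D. simulans*, against 90.4, 90.8 and 79.3 CPM in *D. mauritiana* PE, and the groups were well apart. Between the sets of *D. mauritiana* it was higher in the PE set by 2.14 (adjusted p = 0.00436), called in all 6 fits with 1 library left out. In that comparison 6 of these 8 genes were higher and 1 lower, and 2 of the 7 collagen IV processing genes were higher and 1 lower.

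Markers of the larval fat body moved with the 10 genes within *D. melanogaster*. The 7 markers (*Lsp1alpha*, *Lsp1beta*, *Lsp1gamma*, *Lsp2*, *Fbp1*, *Fbp2* and *apolpp*, which encode storage and transport proteins and their receptor) summed to 5733, 174 and 4978 CPM in *D. melanogaster*, against 745, 1024 and 2267 CPM in *D. mauritiana* SE. In the PE libraries they summed to 171, 55.3 and 48.1 CPM in *D. simulans*, against 64.7, 91.6 and 50.6 CPM in *D. mauritiana*. None of the 7 was at 0 in any library. The order of the libraries by the fat body sum was that by the summed level of the 10 genes in *D. melanogaster* and in *D. simulans*. In *D. mauritiana* PE replicate F was the lowest in both sums, and in *D. mauritiana* SE the lowest fat body sum was that of replicate A and the lowest sum of the 10 genes that of B. The 10 genes summed to 2425, 573 and 2187 CPM in *D. melanogaster*, against 1038, 763 and 1105 CPM in *D. mauritiana* SE, and to 1871, 1405 and 1162 CPM in *D. simulans*, against 1519, 1476 and 1069 CPM in *D. mauritiana* PE. None of the 7 was called between *D. melanogaster* and *D. mauritiana* SE in edgeR or in DESeq2, and none had an unadjusted p below 0.05, with a median log2 fold change of 1.56. Without *D. melanogaster* replicate B, 5 of 7 were called, all higher in *D. melanogaster*, with a median of 2.13. Between *D. simulans* and *D. mauritiana* PE none was called by either tool or had an unadjusted p below 0.05. In the PE set of *D. mauritiana* all 7 were lower than in the SE set, with a median log2 fold change of -4.54. *Fbp1* differed most (-5.65, adjusted p = 0.0107, edgeR), and of the 10 genes 8 had estimates above 0 in the same comparison, with *Ppn* called, and 2 below 0, *SPARC* and *NimC1*.

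**Figure D5:**
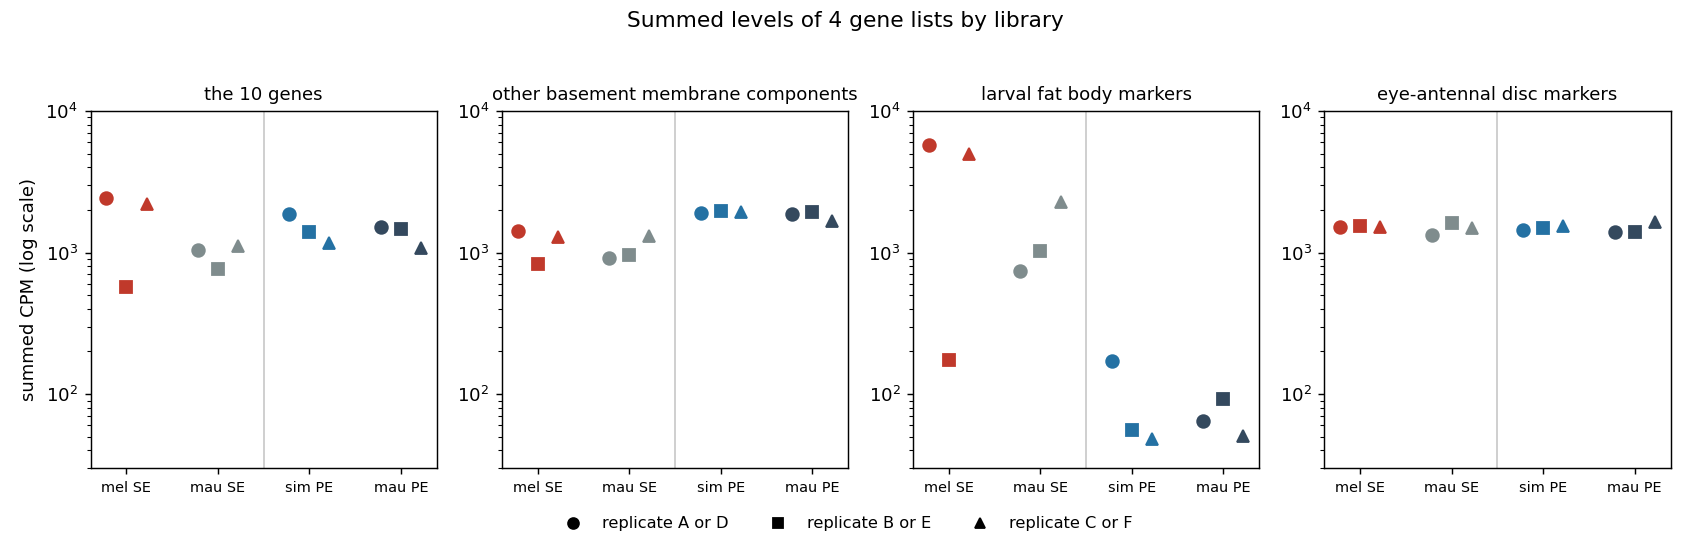
Summed CPM (log axis) per library of the 10 genes, of 5 other basement membrane components, of 7 fat body markers and of 8 eye-antennal disc markers, in *D. melanogaster* (mel SE), *D. mauritiana* (mau SE, mau PE) and *D. simulans* (sim PE). *D. melanogaster* replicate B is the lowest of its group in the first, the second and the third panel, with 573, 831 and 174 CPM. It is the highest of its group in the disc markers, with 1540.1 CPM.

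Markers of the other cell types that the discs could carry were read in the same way. Muscle markers summed to 1573, 868 and 1628 CPM in *D. melanogaster*, against 899, 1183 and 936 CPM in *D. mauritiana* SE, so replicate B was low here too. None of the 4 muscle genes was called in that pair by edgeR or DESeq2, with 1 at an unadjusted p below 0.05, and 3 of 4 were higher in *D. simulans* than in *D. mauritiana* PE, *Mhc* (1.66), *Mlc2* (1.01) and *up* (0.56), with all 4 called in DESeq2. Summed glia markers ranged from 166 to 193 CPM in *D. melanogaster* and from 154 to 204 CPM in *D. mauritiana* SE, neuron markers from 49.5 to 50.8 CPM and from 70.7 to 111 CPM, and trachea markers from 808 to 948 CPM and from 763 to 805 CPM in the same 2 groups. Of the glia markers 1 of 3 was higher in *D. melanogaster*, *moody* (0.68, adjusted p = 0.0196, edgeR), and of the neuron markers 2 of 4 were lower, *brp* (-1.52, adjusted p = 0.0185) and *nSyb* (-0.79, adjusted p = 0.0274). *brp* was called in 4 of the 6 fits with 1 library left out, and *moody* and *nSyb* in 2 each. None of the 3 trachea markers was called in edgeR, with 1 at an unadjusted p below 0.05 and 1 lower in DESeq2. In *D. simulans* the glia markers ranged from 215 to 236 CPM, against 202 to 205 CPM in *D. mauritiana* PE, the neuron markers from 109 to 185 CPM, against 176 to 264 CPM, and the trachea markers from 597 to 647 CPM, against 816 to 846 CPM. There 2 of the 3 trachea markers were lower in *D. simulans*, *serp* (-0.46, adjusted p = 0.00163, edgeR) and *verm* (-0.38, adjusted p = 0.00621), each in all 6 fits with 1 library left out. No glia or neuron marker was called in edgeR, with 1 of each list at an unadjusted p below 0.05, and DESeq2 called 1 neuron marker. Between the sets of *D. mauritiana*, calls in the PE set were 3 higher of 4 for muscle, 1 higher and 1 lower of 3 for glia, 2 higher and 1 lower of 4 for neurons, 1 higher of 3 for trachea, and 1 higher and 1 lower of 8 for the disc. Of the disc markers, none of 8 was called in either species comparison by edgeR or DESeq2, and none had an unadjusted p below 0.05 in edgeR. Their sum does not show *dac*, picked for mention after its values had been seen, which had 175, 74.5 and 159 CPM in *D. melanogaster*, against 65.4, 93.0 and 133 CPM in *D. mauritiana* SE, with its lowest *D. melanogaster* value in replicate B. The part of these cell types in the levels of the 10 genes was not tested.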

How the data were processed

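Each library was mapped by the authors with Bowtie2 to the coding sequences annotated for its own species, and reads were summed with SAMtools 0.1.19. They deposited raw read counts per gene, beside model lengths in nucleotides, in 6 tables for 3 annotations (published, direct and reciprocal re-annotation). Reads were not trimmed, paired-end reads were split into 50 bp pieces, and models held the longest isoform without untranslated regions. The study names *D. simulans* C and *D. mauritiana* A, D and E as libraries with bases of low quality. It also lists *D. melanogaster* B and *D. mauritiana* SE A with the lowest percentage of mapped reads of their groups. Whether the counting used strand is not given in the sources used here. The design text calls the samples biological replicates.

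The reciprocal counts were tested in edgeR 4.0.16 (R 4.3.3) with TMM scaling, filterByExpr and the quasi-likelihood test, with the 6 libraries of 1 comparison in each fit and all 12 for the difference of differences. Standard errors are the absolute log2 fold change divided by the square root of F. Adjusted p-values run over all genes tested. Alternatives were DESeq2 1.42.0, DESeq2 size factors, no filter, the other annotations, gene model length as an offset, the replicate letter as a block and each library left out. DESeq2 used its prior on fold changes (as in the study) for comparisons of 2 groups, and no prior for the difference of differences. The fits were also run on simulated counts with known fold changes. These held no library that stands apart, so that check does not cover a case like *D. melanogaster* replicate B. CPM used TMM-scaled totals, and RPKM divided them by model length.

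All 10 genes are named. Of each list, genes called could be named, at most the 4 with the largest log2 fold change per comparison, as could the 5 genes most alike to *Hml*, *NimC1* and *eater*. The members and lists were chosen with earlier results of these data known. List genes whose identifiers could not be matched are not analysed here (*PPO1*, *Nplp2*, *LanB2*, *trol*, *Tango1*, *scb*, *wupA* and *btl*).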

Additional observations from a re-analysis of the deposited data

Results flagged for a closer look

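The difference between the 2 species differences (*D. melanogaster* over *D. mauritiana* SE minus *D. simulans* over *D. mauritiana* PE) passed the adjusted threshold in edgeR for 7 of the 74 list genes tested (9.46 %) and for none of the 10 hemocyte and basement membrane genes. Of all genes tested, 14.5 % passed, so these calls are not more frequent in the lists than over all genes. Among genes of matrix remodelling it was 1.26 for *Mmp1* (standard error 0.22, adjusted p = 0.00246), which was lower in *D. simulans* than in *D. mauritiana* PE (-1.11) and had an estimate of 0.16 for *D. melanogaster* over *D. mauritiana* SE. It was -1.03 for *Mmp2* (standard error 0.17, adjusted p = 0.00217) and -1.22 for *Timp* (standard error 0.23, adjusted p = 0.00441), both lower in *D. melanogaster* than in *D. mauritiana* SE (-0.87 and -0.79) and with estimates above 0 for *D. simulans* (0.14 and 0.43). Among plasmatocyte genes it was 2.22 for *NimB4* (standard error 0.68, adjusted p = 0.0487) and -1.68 for *Sr-CIV* (standard error 0.47, adjusted p = 0.0334), and these calls were kept in 1 and 5 of the 12 fits that left out 1 library. *NimB4* was lower in *D. simulans* than in *D. mauritiana* PE (-1.51). The difference was -0.85 for the neuron marker *nSyb* (standard error 0.19, adjusted p = 0.01) and 0.69 for the trachea marker *verm* (standard error 0.15, adjusted p = 0.00836). *Mmp1*, *Mmp2*, *Timp*, *nSyb* and *verm* kept their calls in all 12 of those fits. The single-end and paired-end pairs also differ in read type and sequencing set, which cannot be told apart from the species in this contrast.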

How the results depend on the processing

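Of 506 refits of the 10 genes under the alternatives named above, 449 kept direction and side of the threshold. Counts of called genes are given separately. In *D. melanogaster* over *D. mauritiana*, 1 of the 10 genes was called with DESeq2 (*Pxn*, with 20.8 % of all genes called), with the direct re-annotation (*eater*, 19.7 %) and with the replicate block (*eater*, 15.1 %), and 1 of 8 with the published annotation (*eater*, 21.0 %), against 0 in edgeR. In the 2 sets of *D. mauritiana*, DESeq2 called 3 (46.8 % of all genes). Signs turned in 6 refits without a library left out, none of them called: *NimC1* in *D. melanogaster* was -0.029 with the replicate block (0.21 without), *SPARC* in *D. melanogaster* was 0.0053 with DESeq2 size factors, 0.0046 with DESeq2 and 0.042 with the published annotation, *SPARC* in *D. simulans* was 0.014 with length as an offset, and *srp* in *D. simulans* was -0.091 with the published annotation (0.29 with the reciprocal). With 1 library left out, the 10 genes gave between 0 and 5 calls in *D. melanogaster*, between 0 (without SE replicate B or PE replicate E) and 5 (without SE replicate C) between the *D. mauritiana* sets and between 0 and 5 in the difference of differences. All genes called then ranged from 849 (without *D. melanogaster* C) to 1913 in *D. melanogaster*, against 1775 with all libraries, with 985 without *D. melanogaster* A and 1044 without *D. mauritiana* SE B. They ranged from 1633 (without *D. mauritiana* PE D) to 2673 in *D. simulans*, against 2790, with 1736 without *D. simulans* C. Between the *D. mauritiana* sets they ranged from 292 (without SE B) to 6077, against 4743, with 534 without PE E, 1225 without PE D and 3047 without SE A. Ranges that crossed 0 were those of *NimC1* (-0.19 to 0.69) and *SPARC* (-0.18 to 0.28) in *D. melanogaster*, of *srp* (-0.095 to 0.50), *SPARC* (-0.30 to 0.16), *vkg* (-0.043 to 0.35) and *Col4a1* (-0.13 to 0.29) in *D. simulans*, of *NimC1* (-0.49 to 0.29), *srp* (-0.0096 to 0.65) and *Pxn* (-0.018 to 0.29) between the sets, and of *NimC1* (-0.76 to 0.15) and *SPARC* (-0.18 to 0.32) in the difference of differences. The cause was not tested.

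*D. melanogaster* and *D. mauritiana* SE share the letters A to C. Deviations of libraries with the same letter correlated at -0.300 (A), 0.225 (B) and 0.217 (C) across genes. For different letters the values ran from -0.384 (*D. melanogaster* B with *D. mauritiana* C) to 0.435 (*D. melanogaster* A with *D. mauritiana* C). Deviations of 3 libraries from their mean depend on one another, so this check cannot tell whether the letters pair the samples. With the letter as a replicate block, the log2 fold change was 2.05 for *eater* (adjusted p = 0.0146, edgeR) and -0.029 for *NimC1*.

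With 3 libraries a group, and 1 that stands apart in *D. melanogaster*, a difference that was not called is not shown to be absent. Counts in the single-end libraries were as low as 164 (*srp*) and 201 (*eater*) in *D. melanogaster* replicate B.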
